A study of Mus musculus with 21 samples.

Results

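Tumors of mice carrying a Myogenin-Cre driver and an activated Smoothened allele were set against normal neck muscle on Illumina bead arrays of mouse total RNA. The samples were taken by their genotype labels, and they are 6 of the 21 samples of the series. The tumors came from 3 mice, numbered 41, 42 and 43, of genotype Myogenin-Cre/+;SmoM2/+. The muscle was 3 sternocleidomastoid samples of genotype SmoM2/+, numbered 1 to 3, whose labels name no Cre and do not say whether they came from separate animals. Both groups carried the SmoM2 allele on a mixed C57Bl/6 and 129X1/SvJ background, and the labels gave no age. In the tumor mice Cre is driven by the Myogenin promoter, so that recombination is directed to cells that have entered the muscle lineage. The other 15 samples were tumors of mice of genotype aP2-Cre/+;SmoM2/+ on the same background, in which Cre is driven by the promoter of the adipocyte gene aP2. The question that the design poses is which genes distinguish SmoM2 tumors begun with a muscle driver from the muscle itself, and how far they match the tumors begun with the adipocyte driver.

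Hedgehog signalling runs from the receptor Patched, which holds the membrane protein Smoothened inactive until a ligand binds, to the Gli transcription factors. SmoM2 is a mutant Smoothened that signals without ligand, and the genes for Patched and for the ligand-binding inhibitor Hhip are themselves Gli targets. Skeletal muscle forms when precursors express Myod1 and then Myogenin, fuse into fibers, and replace embryonic and neonatal contractile proteins, such as the perinatal myosin Myh8, with adult ones, while acetylcholine receptors change from a fetal to an adult subunit. Rhabdomyosarcoma is a tumor whose cells carry features of that program without completing it.

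Between 32.0% and 39.8% of the 45281 probes were detected per array (detection p under 0.01). Levels are given as normalized log2 intensities, in which 1 unit is a factor of 2. Among the genes described below as higher, Tnni1, Bcl2, Bub1b, Cx3cr1, Eno2, Erbb2, Mycl and Nog were detected on 1 of 3 muscle arrays and Actg2, Cdt1, Fgfr2, Trp63 and Twist2 on 2. Among those described as lower, Hadh and Kcna7 were detected on 1 of 3 tumor arrays and Aurka, Eya1, Hoxa5, Kcnk3, Mfng and Slc27a2 on 2, so that the differences given for all of these rest in part on signal not above background. Against the lowest detected signals each of these differences was smaller than the fitted value given below. Fgfr2, for example, was then at least 11.5-fold and Mycl at least 6.0-fold higher, and Hoxa5 at least 11.6-fold lower. The values fell into 5 array sets, each sharing 1 distribution in the authors' normalized table, and no set held both Myogenin-Cre tumors and muscle. A fit with the array set as a covariate links those groups through the aP2-Cre tumors, which lay in every set. It ended 34 calls among the 230 named genes, and its result is given for only some of these. A called gene without such a value below therefore need not have passed in that fit. Counts from that fit are given for many of the lists where they differ by more than 1.5 times. Over all genes the muscle arrays correlated with each other at r = 0.983 to 0.988, the Myogenin-Cre tumors with each other at 0.939 to 0.965, and tumor with muscle at 0.858 to 0.890.

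The arrays of tumor 41 and muscle 2 stood apart from the others of their groups. In tumor 41, 104 of 11034 genes lay at least 2 log2 units above both other tumors, where those lay within 1 unit of each other, against 8 in tumor 42 and 3 in tumor 43. Muscle 2 had 18 such genes against 0 in muscle 1 and 3 in muscle 3. Smr3a, a salivary prohormone gene, had levels of 4.86, 14.31 and 8.23 in muscle and 4.73, 4.47 and 4.34 in tumors 41, 42 and 43. The salivary protein gene Bpifa2 had 6.36, 15.15 and 9.83 in muscle and 13.15, 5.38 and 6.53 in tumors 41, 42 and 43. Smr3a was therefore high on muscle 2 and Bpifa2 on both of these arrays. The summed level of 8 salivary gland and lymph node markers was 10.42, 15.33 and 10.62 in muscle and 15.17, 9.83 and 11.61 in tumors 41, 42 and 43. Among the tumors, tumor 41 was the highest for 8 of 8 of these, 6 of 7 epidermal and 5 of 5 erythroid markers. Y-linked probes were detected in tumors 41 and 43 and on no muscle array, so sex was not balanced between the groups. Counts without tumor 41 and muscle 2, an alternative chosen after the data were seen, are given where they differ by more than 1.5 times.

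Of all genes tested 49.1% differed between the Myogenin-Cre tumors and muscle, in similar numbers upward and downward. Of 11034 genes, 2778 (25.2%) rose and 2635 (23.9%) fell in limma's test at a Benjamini-Hochberg adjusted p under 0.05, and 1389 of the former and 1176 of the latter did so by at least 2-fold. The test estimated each gene's spread from all 21 arrays together, and the median difference over all genes was 0.06 on the log2 scale. All 3 tumors lay above all 3 muscle arrays for 3542 genes (32.1%) and below them for 3355 (30.4%). With the array set in the fit 2029 genes rose (18.4%) and 2004 fell (18.2%), of which 1821 and 1781 were called the same way in both fits. A fit of the 6 arrays alone gave 2836 (25.7%) and 2769 (25.1%). With median centering in place of quantile normalization the split moved to 2942 higher and 1398 lower. Each gene group below is to be read against these shares, since about 1 gene in 4 was called in each direction. The groups were chosen with earlier results of these data known, so a count above these shares is a description and not a test. In such bulk samples fewer cells of a type and less RNA per cell cannot be told apart.

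**Figure D1:**
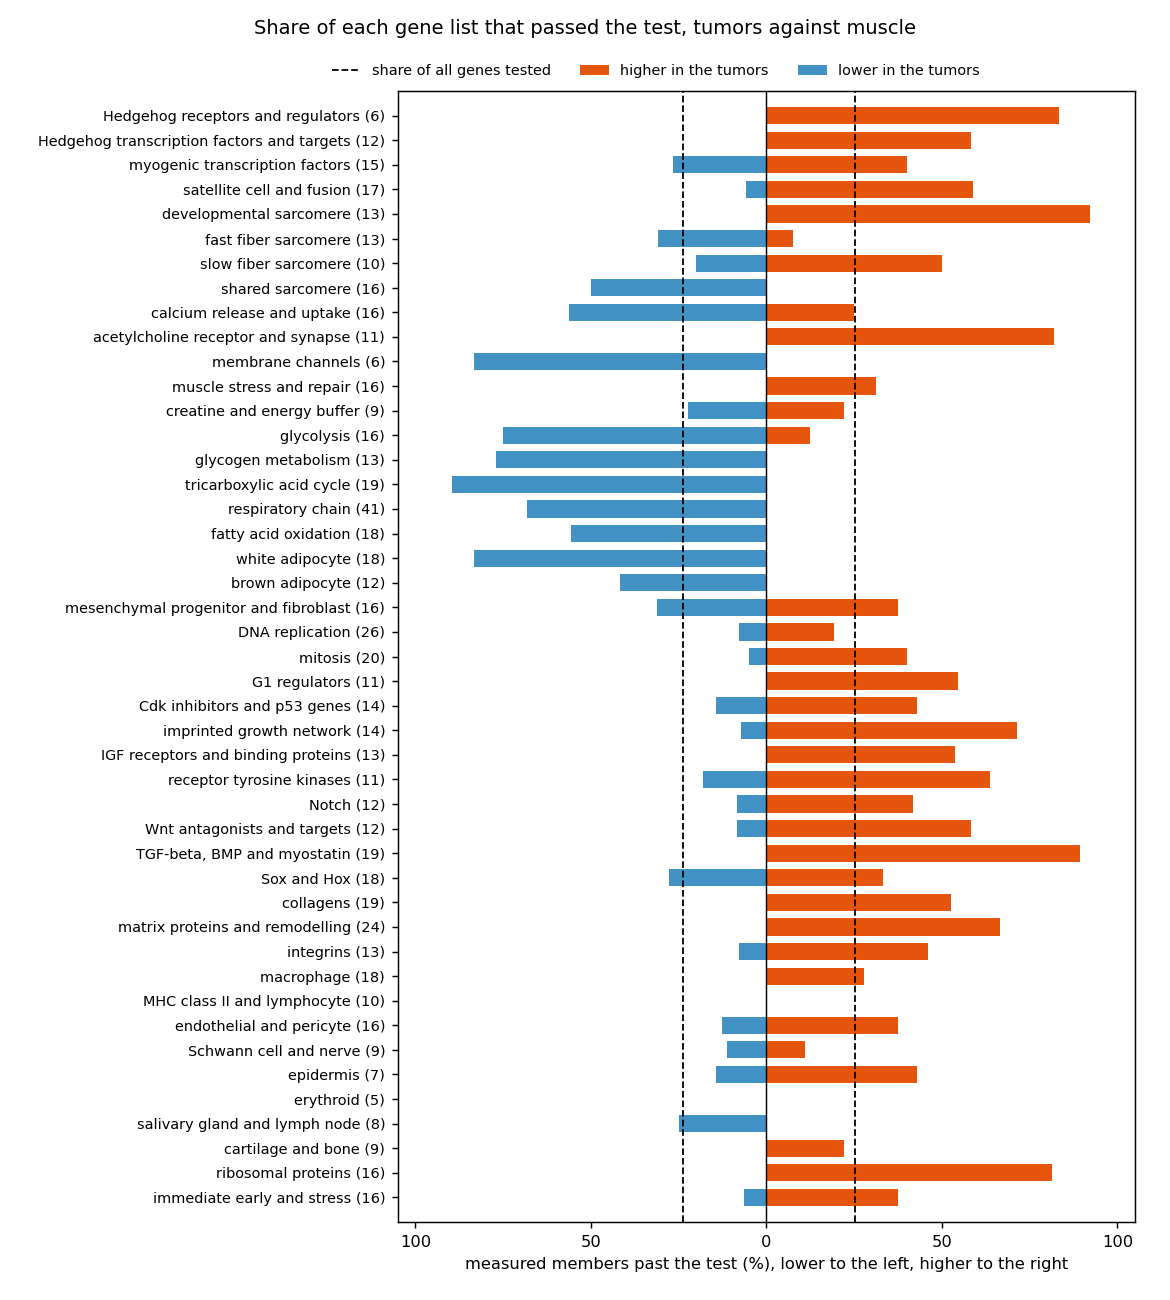
Share (%) of each list's measured genes that passed the test in the Myogenin-Cre tumors against muscle, higher to the right and lower to the left, with the number measured in brackets; dashed lines are the shares over all genes tested, 25.2% and 23.9%. Developmental sarcomere genes (12 of 13) and TGF-beta genes (17 of 19) reach furthest to the right and tricarboxylic acid cycle genes (17 of 19) furthest to the left.

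Hedgehog pathway genes were higher in the tumors at the level of receptor, transcription factor and target, and 0 were called lower. Hhip, the membrane inhibitor that binds Hedgehog ligands, had levels of 4.52, 4.52 and 4.41 in muscle and 8.42, 9.32 and 8.93 in tumors 41, 42 and 43. It was not detected on any muscle array and lay on all 3 tumors far above that background, at least 9.33-fold higher (adjusted p = 1.4e-07). Ptch1, the Patched receptor, had levels of 6.43, 6.37 and 6.05 in muscle and 8.55, 9.65 and 9.96 in tumors 41, 42 and 43. The groups did not overlap, tumor 41 was the lowest tumor, and the rise was 8.61-fold (log2 difference 3.11, SE 0.32, adjusted p = 1.2e-07). Smo had levels of 7.13, 7.13 and 7.0 in muscle and 8.40, 8.90 and 8.75 in tumors 41, 42 and 43, a smaller rise of 3.03-fold (adjusted p = 3.3e-06), and whether its probe reads the SmoM2 transcript cannot be told from the files. Of 6 measured receptors and regulators 5 rose, with a list median of 1.31. The co-receptor Cdon (log2 difference 1.03) and the Gli inhibitor Sufu (0.46) did so narrowly, and both lost the call with the array set in the fit (adjusted p = 0.545 and 0.187) or with the 6 arrays alone (adjusted p = 0.0835 and 0.0797), which left 3, as did leaving out tumor 42 or any 1 muscle array.

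Of 12 Hedgehog transcription factors and targets 7 rose and 0 fell, with a median of 1.28 (0.70 with undetected genes at their bounds). Gli2, the main activating Gli protein, had levels of 6.88, 6.38 and 6.26 in muscle and 8.82, 9.23 and 9.34 in tumors 41, 42 and 43. All tumors exceeded all muscle arrays, and the rise was 6.17-fold (log2 difference 2.63, SE 0.24, adjusted p = 3.4e-08). Gli3 rose by 1.16 and the Wnt antagonist Sfrp1 by 2.25 on the log2 scale, and neither passed with the array set in the fit (adjusted p = 0.123 and 0.131). The forkhead genes Foxf1 and Foxc2 were undetected in muscle and were at least 1.89-fold and at least 1.18-fold higher in the tumors (adjusted p = 4.2e-05 and 6.3e-05). The survival gene Bcl2 rose 2.64-fold (adjusted p = 1.0e-05) and the cyclin gene Ccnd1 3.0-fold (adjusted p = 0.000514). Osr2, a developmental transcription factor gene, had levels of 8.91, 8.84 and 8.56 in muscle and 8.12, 6.32 and 7.91 in tumors 41, 42 and 43. All tumors lay below all muscle arrays, and the difference of -1.32 was not called (adjusted p = 0.0957), whereas it passed with the 6 arrays alone (adjusted p = 0.0443). The one measured ligand gene, Dhh, differed by -0.34 (adjusted p = 0.258) and was not called.

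**Figure D2:**
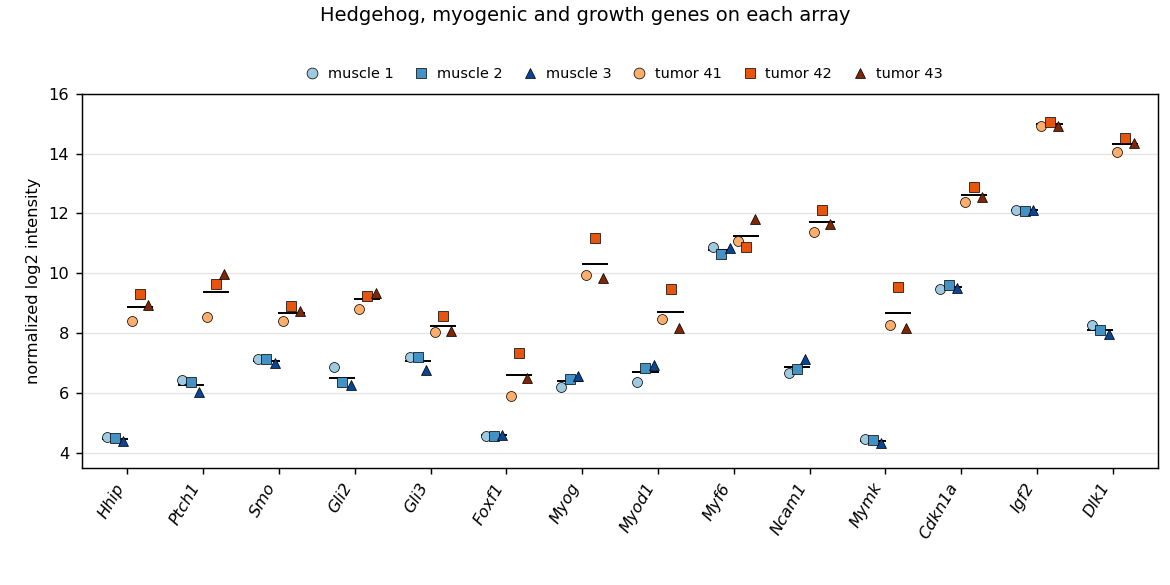
Normalized log2 intensity of Hedgehog, myogenic and growth genes on each array, 1 point per array for 3 muscle samples and 3 Myogenin-Cre tumors, with horizontal lines at the group means. For Ptch1, Gli2, Myog and Dlk1 the tumor points lie wholly above the muscle points, while Hhip was undetected in muscle and Myf6 was not called.

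Of 15 measured myogenic transcription factors 6 rose and 4 fell. Myf5, Pax3 and Pax7 had probes, but none of these was detected on at least 3 of the 21 arrays, so these genes were not tested. Myog, which drives terminal muscle differentiation, had levels of 6.19, 6.49 and 6.58 in muscle and 9.94, 11.19 and 9.83 in tumors 41, 42 and 43. All tumors lay above all muscle arrays, with tumor 42 the highest, and the rise was 14.9-fold (log2 difference 3.90, SE 0.33, adjusted p = 8.6e-09). Myod1, the factor that commits cells to muscle, had levels of 6.36, 6.83 and 6.94 in muscle. In tumors 41, 42 and 43 its levels were 8.46, 9.48 and 8.18. The rise was 3.99-fold (adjusted p = 0.000111). Tcf21, a factor of head muscle and mesenchymal precursors, was undetected in muscle and at least 4.76-fold higher in the tumors (adjusted p = 4.4e-07), and Tbx1, needed for branchiomeric muscle, rose 4.52-fold (adjusted p = 0.000123). Those that fell were Eya1 (-1.43), a cofactor of early muscle transcription, Lbx1 (-1.14), known from migrating limb precursors, and Mef2d and Six4, which were detected on 2 of 3 muscle arrays and no tumor array and were at least 1.17-fold and at least 1.37-fold lower (adjusted p = 0.00109 and 0.0396), and the last 2 lost the call with the array set in the fit (adjusted p = 0.117 and 0.831). Myf6, the regulator most abundant in adult fibers, differed by 0.46 (adjusted p = 0.379) and was not called.

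Genes of satellite cells, the stem cells of muscle, and of myoblast fusion also rose, 10 of 17 against 1 that fell, with a median of 0.93. Ncam1, an adhesion molecule of immature and denervated fibers, had levels of 6.69, 6.79 and 7.14 in muscle and 11.37, 12.11 and 11.66 in tumors 41, 42 and 43. The groups were separated by more than 4 units and the rise was 28.6-fold (log2 difference 4.84, SE 0.21, adjusted p = 4.4e-13). Mymk, the fusion protein myomaker, was undetected in muscle and at least 7.99-fold higher in the tumors (adjusted p = 6.6e-10). The satellite cell receptor Megf10 rose 12.1-fold (adjusted p = 3.9e-08) and the laminin receptor subunit Itga7 3.22-fold (adjusted p = 1.3e-05). The progenitor marker Cd34 fell by 0.88 on the log2 scale (adjusted p = 0.00335).

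Most contractile genes of developing muscle rose, while those of adult fast fibers were mixed. Of 13 developmental sarcomere and cytoskeletal genes 12 rose and 0 fell, with a median of 2.93. Myh8, the perinatal myosin heavy chain, had levels of 8.03, 8.14 and 8.41 in muscle and 15.07, 15.32 and 15.13 in tumors 41, 42 and 43. Its probe ranked 4 in brightness among the genes in the tumors, near the top of the scale, so only levels are given. Myl4, the embryonic and atrial myosin light chain, had levels of 8.81, 9.07 and 9.42 in muscle and 14.17, 14.95 and 14.15 in tumors 41, 42 and 43. These groups lay wholly apart, with a rise of 40.0-fold (log2 difference 5.32, SE 0.19, adjusted p = 9.7e-15). Tnni1, Tnnc1 and Tnnt1, the troponin subunits of developing and slow fibers, rose by 5.03, 4.80 and 3.64 on the log2 scale (adjusted p = 3.1e-09, 1.2e-11 and 2.3e-11). Acta2, the smooth muscle actin that immature muscle also makes, rose 5.76-fold (adjusted p = 8.0e-10). Actc1, the cardiac actin of fetal muscle, was the exception, at 12.95, 12.99 and 12.58 in muscle and 11.61, 13.26 and 10.62 in tumors 41, 42 and 43, a difference of -1.01 that was not called (adjusted p = 0.122). With the array set in the fit 10 genes of this list rose and 1 fell. The fallen count was also 1 with cyclic loess, the mean of a gene's probes or array weights, and without tumor 42.

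Fast fiber genes showed a split that the list median of -0.90 does not convey. Myh4, the heavy chain of the fastest fibers, had levels of 13.89, 13.43 and 13.77 in muscle and 8.80, 9.29 and 6.78 in tumors 41, 42 and 43. All tumors lay below all muscle arrays, tumor 42 the highest of them and tumor 43 the lowest, and the fall was 42.4-fold (log2 difference -5.41, SE 1.18, adjusted p = 0.000696). Mybpc2, the fast myosin binding protein, fell by 4.03, Actn3, the fast alpha-actinin, by 1.85, and Tnnt3, fast troponin T, by 0.90 on the log2 scale (adjusted p = 2.9e-05, 0.000247 and 0.00366). Against these, the fast light chains Mylpf and Myl1 and the fast troponins Tnnc2 and Tnni2 were among the 20 brightest genes in 1 or both groups, and none of them was called. The tropomyosin gene Tpm1, which serves fast fibers and many other cells, rose 4.24-fold (adjusted p = 1.9e-07). In all 4 of 13 fell and 1 rose, against 8 that fell in a fit of the 6 arrays alone, and between 7 and 10 that fell with median centering, cyclic loess or array weights.

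Among slow fiber genes 5 of 10 rose, which were the 3 troponins above with Csrp3, a muscle LIM protein, up 2.07-fold, and the calcineurin inhibitor Myoz2, up 2.26-fold. The slow essential light chain Myl3 fell by 2.17 (adjusted p = 0.0035) and the slow tropomyosin Tpm3 by 1.27 on the log2 scale, the latter without the call when the array set was fitted (adjusted p = 0.181). Of 16 sarcomere genes shared by fiber types 0 rose and 8 fell, with a median of -0.60. The Z-disc proteins Ldb3 and Mypn fell by 1.71 and 1.63 (adjusted p = 0.00075 and 0.000771), the thin filament regulator Lmod3 by 1.05 (adjusted p = 1.4e-05) and nebulin, Neb, by 1.35 (adjusted p = 0.00727, and 0.315 with the array set). The count was 4 with the array set in the fit, without tumor 42 or without muscle 3, and 5 without muscle 2, with or without tumor 41. Acta1, the skeletal actin, had levels between 14.87 and 15.03 in muscle and of 14.96, 15.02 and 15.04 in tumors 41, 42 and 43, at the top of the scale in both groups.

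**Figure D3:**
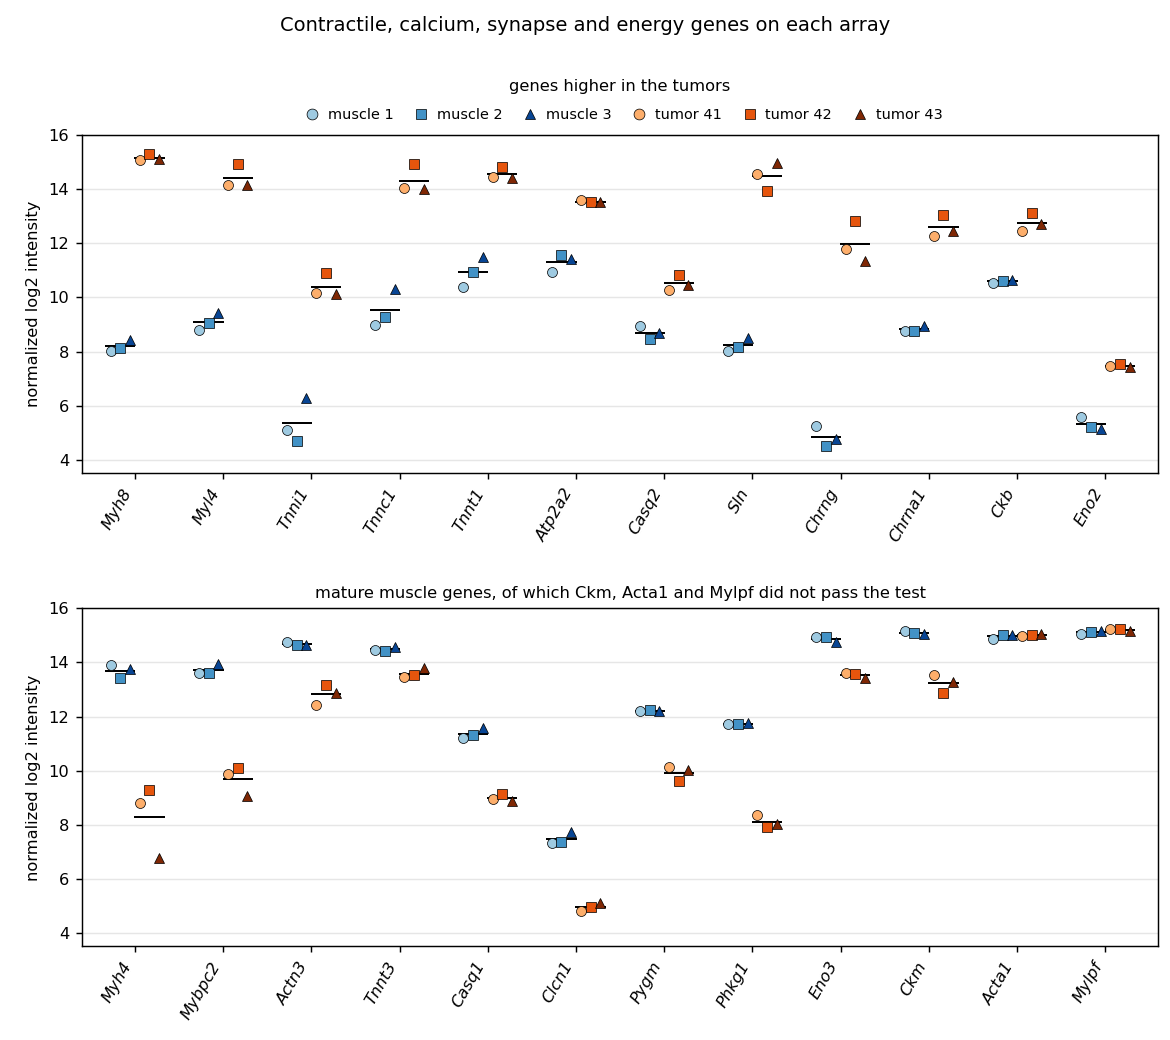
Normalized log2 intensity of contractile, calcium, synapse and energy genes on each array, 1 point per array, with horizontal lines at the group means; the upper panel holds genes higher in the tumors and the lower panel mature muscle genes. Myh8 in all 3 tumors is near the top of the measurable range, Myh4 spreads from 6.78 in tumor 43 to 9.29 in tumor 42, and Ckm, Acta1 and Mylpf did not pass the test.

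Of 16 calcium handling genes 4 rose and 9 fell. Sln, the small peptide sarcolipin that inhibits the calcium pump, had levels of 8.03, 8.16 and 8.50 in muscle and 14.56, 13.92 and 14.97 in tumors 41, 42 and 43. Every tumor lay more than 5 units above every muscle array, tumor 42 being the lowest, and the rise was 76.3-fold (log2 difference 6.25, SE 0.66, adjusted p = 1.9e-07). Sln ranked 27 in brightness among the genes in the tumors, outside the 20 without a fold, but its level in tumor 43 was near the top of the scale. The slow and cardiac pump Atp2a2 had levels of 10.93, 11.58 and 11.43 in muscle and 13.59, 13.53 and 13.52 in tumors 41, 42 and 43 and rose 4.71-fold (adjusted p = 4.6e-07). The fast pump Atp2a1, one of the 20 brightest genes in both groups, was not called (adjusted p = 0.696). The calcium store proteins moved in opposite directions, Casq2, of slow and heart muscle, up 3.53-fold (adjusted p = 7.1e-07) and Casq1, of fast muscle, down 5.20-fold (adjusted p = 4.0e-07). The channel adaptor Stac3, the junction proteins Jph2 and Jsrp1 and 5 others fell too, by as much as 1.97 on the log2 scale (Stac3, adjusted p = 5.4e-06). Ryr3, the release channel of immature muscle, was undetected in muscle and at least 1.37-fold higher (adjusted p = 0.00159), without the call when the array set was fitted (adjusted p = 0.131).

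Of 11 acetylcholine receptor and synapse genes 9 rose and 0 fell, with a median of 1.36. Chrng, the gamma subunit of the fetal receptor, had levels of 5.23, 4.49 and 4.76 in muscle and 11.79, 12.82 and 11.34 in tumors 41, 42 and 43. No muscle array detected it, all 3 tumors held it at more than 11, and it was at least 79.6-fold higher (adjusted p = 8.4e-14). Chrne, the adult subunit that replaces gamma, had levels of 7.90, 7.90 and 7.84 in muscle and 8.76, 8.52 and 8.81 in tumors 41, 42 and 43, a difference of 0.82 that was not called (adjusted p = 0.274, and 0.00164 with the 6 arrays alone). The alpha subunit Chrna1 had levels of 8.77, 8.75 and 8.95 in muscle and 12.29, 13.04 and 12.44 in tumors 41, 42 and 43. Every tumor was far above every muscle array, and the rise was 13.6-fold (log2 difference 3.77, SE 0.24, adjusted p = 9.7e-11). The delta subunit Chrnd and the receptor kinase Musk, which assembles the synapse, were undetected in muscle and at least 2.65-fold and at least 3.26-fold higher (adjusted p = 4.8e-06 and 1.8e-06). Agrin, Agrn, the nerve-derived organizer of receptor clusters, rose 3.06-fold (adjusted p = 1.4e-06). The receptor anchor Rapsn, 1 of the 9, lost its call with the array set in the fit (adjusted p = 0.236). Upstream windows of Chrng and Chrna1, the receptor genes with the most matches to an E-box, are shown beside that of Myh4, a gene that fell, because Myod1 and Myog bind E-boxes. The sequences are the 250 bases before the RefSeq start on the GRCm38.p6 build, 5′ to 3′ on the gene's strand, with the E-box CAGCTG in capitals.
Chrng, chr1:87205561-87205810, plus strand: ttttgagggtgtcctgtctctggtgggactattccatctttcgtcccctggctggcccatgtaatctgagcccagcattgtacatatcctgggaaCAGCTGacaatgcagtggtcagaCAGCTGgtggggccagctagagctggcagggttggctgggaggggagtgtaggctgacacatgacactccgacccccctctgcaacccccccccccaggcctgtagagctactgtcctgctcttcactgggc
Chrna1, chr2:73580339-73580588, minus strand: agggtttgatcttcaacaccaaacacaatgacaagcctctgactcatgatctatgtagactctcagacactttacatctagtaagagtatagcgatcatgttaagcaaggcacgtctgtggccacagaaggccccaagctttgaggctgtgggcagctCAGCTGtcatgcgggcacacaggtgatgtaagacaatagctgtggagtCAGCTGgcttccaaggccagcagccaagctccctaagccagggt
Myh4, chr11:67237562-67237811, plus strand: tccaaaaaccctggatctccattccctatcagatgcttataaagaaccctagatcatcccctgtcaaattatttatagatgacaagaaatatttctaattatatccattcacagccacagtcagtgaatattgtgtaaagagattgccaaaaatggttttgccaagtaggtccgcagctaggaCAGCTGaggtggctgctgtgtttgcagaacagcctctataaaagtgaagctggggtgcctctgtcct

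The 6 letters CAGCTG, which read the same on both strands and were the only motif searched, occurred at -155 and -132 from the Chrng start, counted to the first base of the match, at -92 and -44 for Chrna1, and at -67 for Myh4. Of all genes with such a window 12.8% (3450 of 27025) held at least 1 match, as did 11.7% (1039 of 8883) of the genes tested here. In the receptor list 4 of 8 genes with a window held one, in the developmental sarcomere list 2 of 11, and in the fast fiber list 3 of 8. A match was thus present in genes that rose and in genes that fell, and it says nothing of binding. Chrne, which was not called, also held 1 match.

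Ion channels of the mature fiber membrane went the other way. Of 6 measured, 0 rose and 5 fell, with a median of -2.0. Clcn1, the chloride channel that steadies the resting membrane of adult muscle, had levels of 7.34, 7.35 and 7.72 in muscle and 4.81, 4.97 and 5.10 in tumors 41, 42 and 43. It was detected in muscle and on no tumor array, and was at least 4.22-fold lower (adjusted p = 2.2e-08). The potassium channels Kcna7, Kcnma1 and Kcnj11 fell by 2.75, 2.64 and 1.49 on the log2 scale (adjusted p = 6.6e-07, 2.2e-06 and 3.9e-05). Among 16 stress and repair genes 5 rose, against 25.2% of all genes, and 0 fell. The fallen count was 2 with the 6 arrays alone, 3 with cyclic loess and 1 with array weights. The rises were led by Ankrd1, a titin-binding protein induced by stretch and injury, at 7.39, 6.32 and 6.91 in muscle and 13.16, 13.31 and 13.29 in tumors 41, 42 and 43. Its 3 tumor values lay within 0.2 of each other and its rise was 83.3-fold (log2 difference 6.38, SE 0.23, adjusted p = 9.7e-15). The growth arrest gene Gadd45a rose 2.70-fold and the small heat shock protein Hspb8 1.68-fold (adjusted p = 0.000281 and 0.000172).

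Energy metabolism genes fell broadly, and the median difference was further below 0 for glycogen genes than for the respiratory chain. The muscle creatine kinase Ckm had levels of 15.15, 15.10 and 15.04 in muscle and 13.53, 12.88 and 13.28 in tumors 41, 42 and 43. All tumors lay below all muscle arrays, yet Ckm, among the 20 brightest genes in muscle, was not called (adjusted p = 0.123), whereas it passed with the 6 arrays alone (adjusted p = 0.000244), and the fit over all arrays takes in the spread of the aP2-Cre tumors, whose lowest, median and highest levels were 8.02, 12.13 and 13.94. Ckb, the brain isoform, rose 4.52-fold (adjusted p = 6.9e-08), and the muscle nucleotide enzymes Ampd1 and Ak1 fell by 1.91 and 1.78 on the log2 scale (adjusted p = 0.000886 and 4.4e-05).

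Of 16 glycolytic genes 2 rose and 12 fell, with a median of -0.91. Lactate dehydrogenase A, Ldha, had levels of 14.27, 14.13 and 14.14 in muscle and 12.75, 13.05 and 12.49 in tumors 41, 42 and 43 and fell by 1.42 (adjusted p = 5.0e-06). The kinase gene Pgk1 fell by 1.38, Tpi1 by 1.11 and the muscle mutase Pgam2 by 0.94 on the log2 scale (adjusted p = 1.9e-05, 0.000138 and 3.9e-05). The 2 that rose were Eno2, the neuronal enolase, 4.51-fold (adjusted p = 1.0e-06), and Hk1, the general hexokinase, undetected in muscle and at least 1.74-fold higher (adjusted p = 0.000636). Of 13 glycogen genes 0 rose and 10 fell, with a median of -1.60. Phka1 and Phkb, subunits of the kinase that switches on glycogen breakdown, had muscle levels of 9.81, 9.68 and 9.97 and 10.53, 10.51 and 10.42. Their tumor levels were 6.70, 6.69 and 6.72 and 7.97, 7.91 and 8.01, and they fell 8.67-fold and 5.74-fold (adjusted p = 9.4e-07 and 6.6e-09). The muscle phosphorylase Pygm fell 4.92-fold and glycogenin, Gyg, 3.74-fold (adjusted p = 4.5e-05 and 2.1e-06).

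Of 19 tricarboxylic acid cycle genes 17 fell and 0 rose, with a median of -1.07, and of 41 respiratory chain genes 28 fell and 0 rose, with a median of -0.69. In the cycle the succinyl-CoA ligase subunits Suclg2 and Suclg1 fell by 1.58 and 1.22, the shared dehydrogenase subunit Dld by 1.43 and Idh3b by 1.08 on the log2 scale (adjusted p = 7.1e-06, 0.000199, 0.000291 and 5.2e-05). In the chain cytochrome c, Cycs, had levels of 13.44, 13.42 and 13.51 in muscle and 12.43, 11.89 and 12.07 in tumors 41, 42 and 43 and fell by 1.32 (adjusted p = 3.7e-05), and the complex I subunits Ndufc1 and Ndufa10 by 0.83 and 0.63 (adjusted p = 0.000166 and 0.000434). Fatty acid oxidation gave 10 of 18 fallen and 0 risen, with a median of -0.71, including Hadh by 1.20 and Acads by 1.0 (adjusted p = 1.7e-05 and 0.000108), enzymes of the short-chain steps. With the array set in the fit 15 respiratory chain and 4 fatty acid oxidation genes fell, and the latter count was 3 without tumor 42 and 6 without muscle 2. The fatty acid oxidation count also moved with the normalization, to 5 with median centering and 13 with cyclic loess.

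Most markers of white fat cells fell, and fewer of those of brown fat. Ucp1, the heat-producing carrier of brown fat, had levels of 10.93, 12.13 and 11.29 in muscle and 4.92, 5.48 and 4.41 in tumors 41, 42 and 43. It was high on all muscle arrays and detected on 1 of 3 tumor arrays, and against the lowest detected signals it was at least 64.1-fold lower (adjusted p = 3.4e-09). Of 18 white adipocyte genes 15 fell and 0 rose, with a median of -1.98, against 8 that fell with the array set in the fit. Pparg, the master regulator of fat cell formation, had levels of 9.78, 9.95 and 9.80 in muscle and 8.21, 8.14 and 7.69 in tumors 41, 42 and 43 and fell 3.56-fold (adjusted p = 2.9e-05). Plin1, the coat of the lipid droplet, Cebpa, a partner of Pparg, and Pck1 were undetected in all tumors and at least 4.05-fold, at least 3.47-fold and at least 2.52-fold lower (adjusted p = 2.5e-08, 5.4e-08 and 1.4e-08). The adipokine Adipoq had levels of 11.99, 12.07 and 11.69 in muscle and 9.24, 9.40 and 8.82 in tumors 41, 42 and 43, and its fall of 2.76 (adjusted p = 0.00255) did not pass with the array set in the fit (adjusted p = 0.0633). Of 12 brown fat genes 5 fell and 0 rose, with a median of -0.92, among them the transporter Slc27a2 by 2.76 and the channel Kcnk3 by 2.09 on the log2 scale (adjusted p = 6.6e-11 and 9.2e-07). The summed level of the white fat markers was 15.60, 15.88 and 15.43 in muscle and 14.73, 14.08 and 14.99 in tumors 41, 42 and 43, so transcripts of this list were present in both groups. By the levels of Ucp1 and Adipoq above, the muscle samples held fat transcripts. Their share in the fall of any metabolic gene was not tested.

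**Figure D4:**
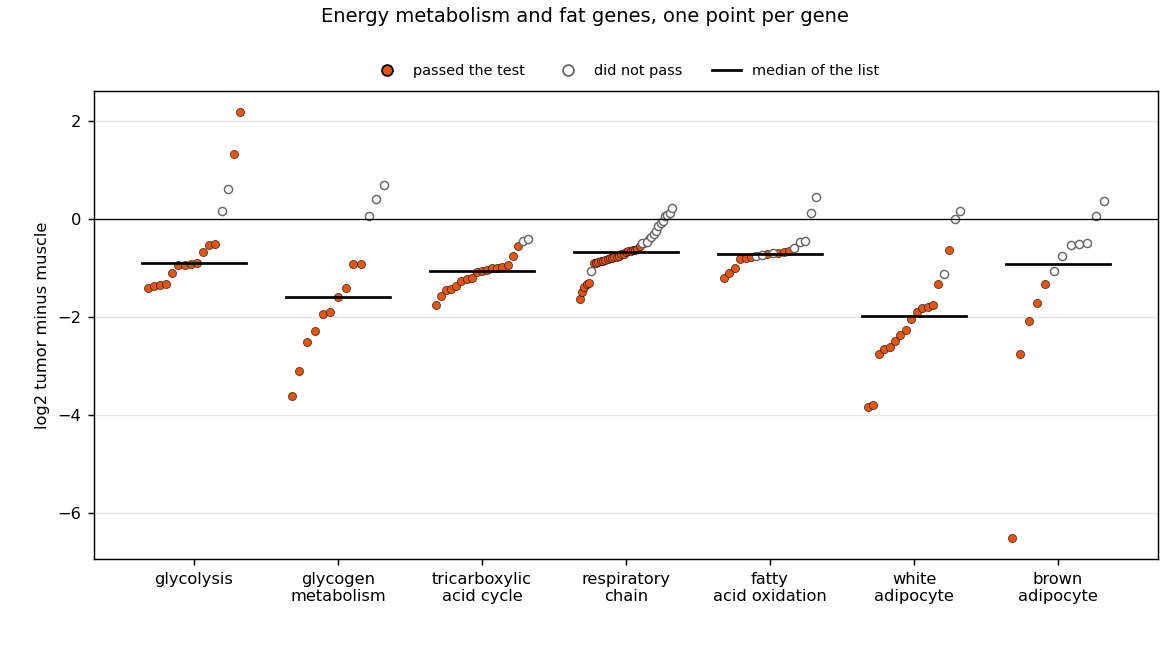
Log2 difference, Myogenin-Cre tumors minus muscle, of each measured gene in 7 energy metabolism and fat lists, 1 point per gene, filled where it passed the test, with a line at each list's median. The medians run from -0.69 for the respiratory chain to -1.98 for white adipocyte genes, and Ucp1, detected on 1 of 3 tumor arrays, is the lowest brown adipocyte point at a fitted -6.51.

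Fetal growth genes rose. Dlk1, an imprinted membrane protein of fetal and regenerating tissues, had levels of 8.26, 8.09 and 7.97 in muscle and 14.06, 14.51 and 14.35 in tumors 41, 42 and 43. The 3 tumors lay within 0.5 of each other and more than 5 units above any muscle array, a rise of 73.5-fold (log2 difference 6.20, SE 0.32, adjusted p = 6.0e-12). Igf2, the imprinted fetal growth factor, had levels of 12.11, 12.08 and 12.11 in muscle and 14.92, 15.07 and 14.91 in tumors 41, 42 and 43, close to the top of the scale in the tumors, so no fold is given. The imprinted zinc finger gene Peg3 rose 6.80-fold (adjusted p = 1.1e-07), and Rian, a noncoding transcript of the Dlk1 cluster, was undetected in muscle and at least 3.43-fold higher (adjusted p = 2.2e-06). Of 14 imprinted genes 10 rose, and Gnas fell by 1.23 (adjusted p = 4.8e-05). Of 13 IGF receptors and binding proteins 7 rose and 0 fell, with a median of 1.08. Igfbp3 had levels of 7.46, 7.37 and 7.0 in muscle and 10.21, 10.48 and 10.41 in tumors 41, 42 and 43 and rose 8.50-fold (adjusted p = 4.5e-10), Igfbp4 rose 5.17-fold, the receptor Igf1r 2.78-fold, and Igfbp2, undetected in muscle, was at least 4.26-fold higher (adjusted p = 7.4e-07, 3.9e-06 and 1.4e-05).

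Of 11 receptor tyrosine kinases 7 rose and 2 fell. Fgfr2 had levels of 5.98, 6.35 and 5.23 in muscle and 9.32, 9.45 and 9.93 in tumors 41, 42 and 43 and rose 13.1-fold (adjusted p = 2.6e-08). Erbb2 rose 5.01-fold, Axl 2.65-fold and the platelet-derived growth factor receptor Pdgfra 2.55-fold (adjusted p = 1.5e-07, 3.8e-08 and 0.000457). Ret, the receptor for glial-derived factors, had levels of 8.08, 7.73 and 8.09 in muscle and 5.31, 4.78 and 4.71 in tumors 41, 42 and 43. It was detected in muscle and in no tumor and was at least 5.96-fold lower (adjusted p = 7.3e-05), and Fgfr1 fell by 0.63 (adjusted p = 0.00557).

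Cell division genes were not uniformly higher, and their counts rested on few arrays. Of 20 mitosis genes 8 rose and 1 fell, with a median of 1.06 (0.68 with undetected genes at their bounds), and of 26 DNA replication genes 5 rose and 2 fell, with a median of 0.23. The spindle checkpoint kinase Bub1b had levels of 6.20, 5.43 and 5.28 in muscle and 7.18, 8.32 and 7.83 in tumors 41, 42 and 43 and rose 4.41-fold (adjusted p = 0.000569), and the mitotic phosphatase Cdc25b, undetected in muscle, was at least 1.68-fold higher (adjusted p = 0.000515). Aurka, a spindle kinase, fell by 1.52 (adjusted p = 0.0132). The licensing factor Cdt1 rose 2.62-fold and the helicase subunit Mcm6 3.34-fold (adjusted p = 0.000476 and 0.000108, the latter 0.0546 with the array set). With the array set in the fit 1 mitosis gene and 1 replication gene rose. Without tumor 42 the counts were 3 and 3, without tumor 43 they were 13 and 10, without muscle 2 the mitosis count was 5, without muscle 3 they were 3 and 3, and without tumor 41 and muscle 2 they were 2 and 3.

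The G1 regulators, which govern entry into the cycle, gave 6 risen of 11 and 0 fallen. Ccnd3, the cyclin D of differentiating muscle, had levels of 9.75, 9.70 and 9.61 in muscle and 11.75, 12.72 and 11.57 in tumors 41, 42 and 43 and rose 5.02-fold (adjusted p = 2.9e-06). The Myc family gene Mycl rose 7.57-fold, Cdk2 2.66-fold and the retinoblastoma gene Rb1 2.15-fold (adjusted p = 4.8e-07, 0.000187 and 6.7e-05). Cdkn1a, the Cdk inhibitor p21 that p53 and Myod1 both induce, had levels of 9.46, 9.62 and 9.52 in muscle and 12.39, 12.88 and 12.54 in tumors 41, 42 and 43. It was higher in every tumor, by 8.41-fold (log2 difference 3.07, SE 0.18, adjusted p = 3.7e-11). Other p53 targets moved in both directions. Bbc3, Phlda3 and Gadd45a rose, Bbc3 by 2.15 and Phlda3 by 1.12 on the log2 scale (adjusted p = 5.7e-06 and 1.5e-05), whereas Ccng1 fell by 1.64 (adjusted p = 1.6e-05). The Cdk inhibitor Cdkn2c fell by 0.88 (adjusted p = 0.0208). In all 6 of 14 rose and 2 fell.

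Of the growth factor gene lists outside the Hedgehog pathway, the TGF-beta family had the largest share of risen genes. In it 17 of 19 genes, antagonists included, rose and 0 fell, with a median of 1.62. Tgfb1 had levels of 7.18, 6.94 and 6.62 in muscle and 9.09, 9.34 and 9.11 in tumors 41, 42 and 43 and rose 4.82-fold (adjusted p = 2.5e-08). Its matrix target Tgfbi rose 6.89-fold, Id1, a target of BMP signals, 2.80-fold and the ligand Bmp7, undetected in muscle, was at least 5.36-fold higher (adjusted p = 2.7e-07, 4.3e-06 and 2.5e-07). The secreted antagonists Fst and Nog rose by 2.83 and 2.06 on the log2 scale (adjusted p = 7.3e-06 and 8.6e-06). Of 12 Wnt genes 7 rose and 1 fell, with Dkk3, a secreted Dickkopf protein, at 7.54, 7.77 and 7.32 in muscle and 9.92, 10.50 and 10.29 in tumors 41, 42 and 43, up 6.45-fold, the receptor Fzd2 up 5.10-fold, and Frzb, a secreted antagonist undetected in the tumors, at least 2.36-fold lower (adjusted p = 3.9e-08, 7.6e-06 and 5.4e-07). Axin2, a direct target of Wnt signals, differed by -0.28 and was not called (adjusted p = 0.394). Of 12 Notch genes 5 rose, but 3 with the array set in the fit, without tumor 42, or without tumor 41 and muscle 2. Hes6, a myogenic Hes factor, rose 9.52-fold and the Notch target Hey1 4.96-fold (adjusted p = 9.5e-08 and 1.0e-06), and the glycosyltransferase gene Mfng fell by 1.07 (adjusted p = 0.0143, and 0.528 with the array set).

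Of the 18 Sox and Hox genes 6 rose and 5 fell, and those that fell were Sox6 and 4 Hox genes. Sox11, a factor of embryonic nerve and mesenchyme, had levels of 4.78, 4.61 and 4.67 in muscle and 9.73, 10.88 and 9.50 in tumors 41, 42 and 43. It was undetected in muscle and at least 20.6-fold higher in the tumors (adjusted p = 2.6e-11). Sox9, the cartilage factor, had levels of 7.24, 7.45 and 7.43 in muscle and 11.32, 11.50 and 11.29 in tumors 41, 42 and 43 and rose 16-fold, and Sox4 rose 9.27-fold (adjusted p = 2.8e-11 and 3.7e-11), but Sox6, which supports the fast fiber program, fell by 1.49 (adjusted p = 0.000146). Hoxa5, a patterning gene of the neck and shoulder level, had levels of 9.43, 9.62 and 9.38 in muscle and 5.48, 6.80 and 4.74 in tumors 41, 42 and 43. The groups did not overlap and it fell 13.9-fold (adjusted p = 7.7e-05), while Hoxa4 and Hoxd8 fell by 1.90 and 1.80 on the log2 scale (adjusted p = 0.000193 and 0.000146). The labels do not give the tumors' position on the body.

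Of 19 collagens 10 rose and 0 fell (median 1.24), and of 24 other matrix genes 16 rose and 0 fell (median 1.12). Col5a3 had a difference of -0.62 that was not called (adjusted p = 0.0583) but passed with the array set in the fit (adjusted p = 0.0166). Lox, the enzyme that cross-links collagen, had levels of 7.76, 7.78 and 7.65 in muscle and 10.33, 11.14 and 10.70 in tumors 41, 42 and 43 and rose 7.95-fold (adjusted p = 1.5e-06). The small proteoglycan Bgn rose 4.79-fold, the membrane protease Mmp14 5.64-fold and Mmp2, which it activates, 2.36-fold (adjusted p = 9.2e-09, 1.2e-06 and 2.7e-05). The basement membrane chains Col4a1 and Col4a2 rose 4.42-fold and 3.44-fold, Col16a1 6.06-fold and Col6a1 3.54-fold (adjusted p = 2.1e-07, 2.0e-05, 1.4e-09 and 4.5e-06). Of 13 integrin genes 6 rose and 1 fell. The tenascin receptor subunit Itga9 rose 8.54-fold, the fibronectin receptor subunit Itga5 6.25-fold and the common partner Itgb1 3.19-fold (adjusted p = 3.8e-08, 1.3e-06 and 3.1e-06), and Itga11 fell by 0.80 (adjusted p = 0.0019). Among 16 mesenchymal genes 6 rose and 5 fell (3 with the array set in the fit or without tumor 41, muscle 1 or muscle 2, and 2 without tumor 43 or without tumor 41 and muscle 2), with Twist2 up 3.20-fold and the fibroblast gene Pi16 down 3.30-fold (adjusted p = 0.00118 and 0.0132).

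Ribosomal protein genes gave 13 risen of 16 and 0 fallen, with a median of 0.64, led by Rpl3 with a log2 difference of 1.62 and Rps9 with 1.05 (adjusted p = 9.5e-08 and 9.3e-07). The early response gene Egr1 rose 4.90-fold and the metallothionein gene Mt1 3.06-fold (adjusted p = 3.0e-05 and 0.000305), in a list of 16 in which 6 rose and 1 fell, and 3 rose with the array set in the fit, without muscle 1, or without tumor 41 and muscle 2.

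Markers of other cell types are given with each list's summed level, since the part that such cells play in the results above was not tested. Macrophage markers summed to 12.33, 12.52 and 11.78 in muscle and 13.08, 13.14 and 12.67 in tumors 41, 42 and 43, and 5 of 18 rose and 0 fell (3 rose with the array set, without tumor 42 or without muscle 3), among them the chemokine receptor Cx3cr1, 3.53-fold, and the glycoprotein Gpnmb, 3.13-fold (adjusted p = 0.000819 and 0.00242). Endothelial and pericyte markers summed to 13.85, 13.73 and 13.73 in muscle and 14.11, 13.84 and 13.99 in tumors 41, 42 and 43, with 6 of 16 risen and 2 fallen, against 2 risen and 6 fallen with the array set in the fit and 2 risen without tumor 41 and muscle 2. The fenestral protein Plvap rose 2.64-fold and the pericyte genes Rgs5 and Abcc9 fell by 2.09 and 1.60 on the log2 scale (adjusted p = 0.000241, 8.6e-05 and 1.3e-06). MHC class II and lymphocyte markers gave 0 called of 10, and their sums were 11.93, 11.81 and 11.38 in muscle and 11.05, 11.41 and 9.56 in tumors 41, 42 and 43, while the T cell gene Cd3e was undetected in muscle and in tumors 41 and 43.

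Of 9 Schwann cell and nerve genes 1 rose and 1 fell, and their sums were 11.89, 11.90 and 11.90 in muscle and 12.14, 11.77 and 12.09 in tumors 41, 42 and 43. The one that rose, Uchl1, a deubiquitinase of neurons, had levels of 5.66, 5.75 and 6.13 in muscle and 10.16, 9.79 and 10.42 in tumors 41, 42 and 43 and rose 19.4-fold (adjusted p = 3.0e-09), while the myelin gene Mag fell by 0.89 (adjusted p = 0.00321). Epidermal markers summed to 9.31, 9.21 and 9.21 in muscle and 13.28, 10.17 and 10.55 in tumors 41, 42 and 43, far highest in tumor 41, with a median of 2.15 (1.13 with undetected genes at their bounds), and 3 of 7 rose and 1 fell, against 1 that rose with the array set in the fit or without tumor 41. Krt14, the basal keratin, had levels of 4.48, 4.49 and 4.57 in muscle and 11.16, 7.48 and 7.98 in tumors 41, 42 and 43, and Trp63, the basal epithelial factor, rose 5.62-fold in a comparison that no alternative setting ended (adjusted p = 3.7e-07). Of 9 cartilage and bone genes 2 rose, Sox9 and the osteoblast factor Sp7, which was undetected in muscle and at least 3.43-fold higher (adjusted p = 0.000264), while the cartilage genes Acan and Col10a1 were undetected in both groups. Of 5 erythroid genes 0 were called, but with the 6 arrays alone 1 rose and 4 fell. Hba-a1, the hemoglobin alpha chain, was among the 20 brightest genes in muscle (adjusted p = 0.225, and 0.00324 with the 6 arrays alone). The one that rose with the 6 arrays alone was the red cell anion exchanger Slc4a1 (adjusted p = 0.0961, and 0.00537 with the 6 arrays alone). Its levels were 7.28, 6.34 and 7.38 in muscle and 10.81, 9.82 and 8.63 in tumors 41, 42 and 43.

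The 10 called genes with the largest fitted rises and no overlap of the groups included 4 outside the lists. Sct, the hormone secretin, and Otog, a protein of the inner ear matrix, were undetected in muscle and at least 56.2-fold and at least 23.1-fold higher (adjusted p = 8.5e-11 and 1.2e-11). Actg2, the enteric smooth muscle actin, had levels of 7.06, 6.59 and 5.46 in muscle and 11.82, 12.55 and 12.21 in tumors 41, 42 and 43 and rose 56.6-fold (adjusted p = 2.5e-08). Bpifb1, an airway and gland secretory protein, was highest in tumor 41 and at least 23.8-fold higher (adjusted p = 0.0062), and it lost the call without tumor 41 and muscle 2. Among the falls, Lrrc38, a subunit of the potassium channel Kcnma1, was detected on 2 of 3 tumor arrays and Plcd4, a phospholipase, on 1, and against the lowest detected signals they were at least 27.8-fold and at least 19.6-fold lower (adjusted p = 3.7e-11 and 3.9e-10). Retnla, a secreted protein of fat and macrophages, fell by 4.24 on the log2 scale (adjusted p = 2.7e-05). The muscle membrane gene Smco1, detected on 1 tumor array, was at least 14.6-fold lower and the methyltransferase gene Mettl21c fell 14.8-fold (adjusted p = 1.7e-07 and 7.7e-07). Smr3a and the gland gene Chia1 were called lower as well (adjusted p = 0.00383 and 0.0196), but both rested on muscle 2. They failed with the 6 arrays alone (adjusted p = 0.106 and 0.112) and with the array set in the fit (adjusted p = 0.107 and 0.279).

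Some gene groups shared an order of the 3 tumors and others did not. Tumor 42 was the highest of the 3 for 20 of 20 mitosis genes, 23 of 26 replication genes, 13 of 13 developmental sarcomere genes, 21 of 24 matrix genes and 15 of 19 collagens, against 42.2% of all genes. Tumor 43 was the lowest for 18 of 20 mitosis and 20 of 26 replication genes, against 33.1% of all genes. For energy metabolism tumor 42 was instead the lowest, for 38 of 41 respiratory chain, 18 of 19 tricarboxylic acid cycle and 17 of 18 fatty acid oxidation genes, against 34.5% of all genes. No such order appeared among fast fiber genes, of which tumors 41, 42 and 43 were the highest for 4, 5 and 4 of 13, or among white adipocyte genes, with 5, 7 and 6 of 18. These counts describe 3 tumors without replicates of each, and genes of a group are not independent. Among the 5 genes that varied most among the tumors were 4 of secreted proteins besides Bpifa2. The gastric lipase gene Lipf had tumor levels of 14.72, 6.54 and 12.66, the trefoil gene Tff2 13.57, 6.14 and 11.75, the antimicrobial gene Wfdc12 14.55, 6.49 and 8.10 and the prostate secretory gene Sbpl 13.56, 5.97 and 9.67. All 4 were highest in tumor 41 and lowest in tumor 42, and none was called against muscle (adjusted p = 0.064, 0.0928, 0.234 and 0.141).

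**Figure D5:**
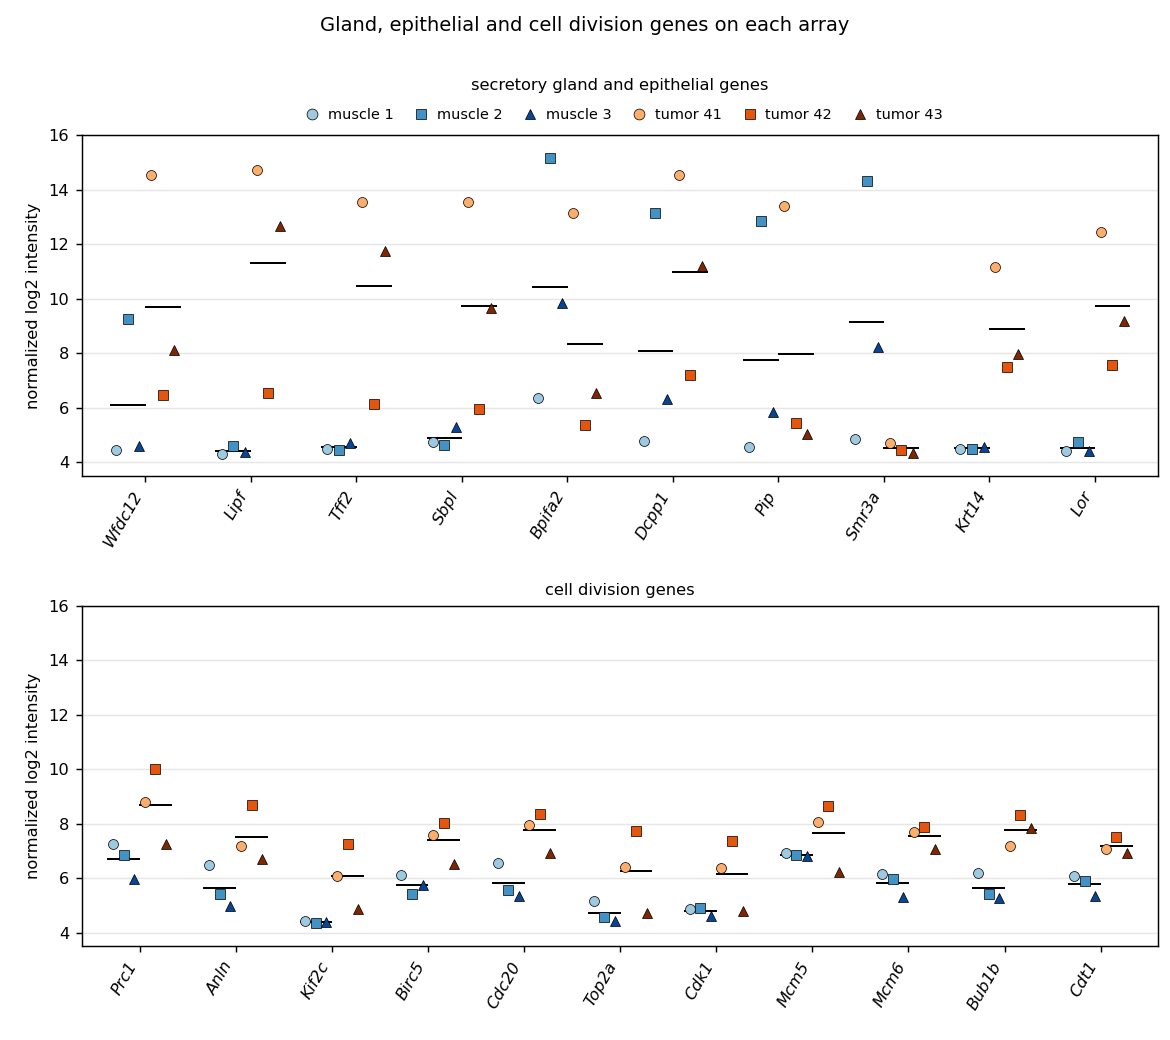
Normalized log2 intensity of secretory gland and epithelial genes (upper panel) and cell division genes (lower panel) on each of the 3 muscle and 3 Myogenin-Cre tumor arrays, with horizontal lines at the group means. Each gland or epithelial gene is highest in tumor 41 or on muscle 2, and tumor 42 is the highest tumor for every cell division gene drawn.

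Fewer genes separated the Myogenin-Cre tumors from the aP2-Cre tumors than from muscle. Against all 15 aP2-Cre arrays, 847 genes were higher (7.68%) and 891 lower (8.08%) in the Myogenin-Cre tumors, and with only the 3 aP2-Cre tumors of the same array set 12 (0.109%) and 33 (0.299%), of which 10 and 32 were called in both. Median centering gave 226 higher and 1035 lower, the array set as a covariate 208 and 201, and leaving out tumor 41, 42 or 43 gave 304, 1005 or 170 higher and 311, 1188 or 196 lower. The array correlations of Myogenin-Cre with aP2-Cre tumors ran from 0.871 to 0.979. Hhip differed between the tumor kinds by 1.0 (adjusted p = 0.0591), Ptch1 by 0.19 (0.648), Sln by 1.17 (0.123) and Dlk1 by 0.16 (0.698), none of them called. Gli2 was 0.67 higher on the log2 scale (adjusted p = 0.022) and its aP2-Cre levels had a lowest, median and highest value of 7.91, 8.49 and 8.95, so that tumors 42 and 43 lay above all aP2-Cre tumors and tumor 41 within their range. Myog was lower in the Myogenin-Cre tumors (-0.91, adjusted p = 0.0203) and so was Myod1 (-1.0, adjusted p = 0.0198). None of these 3 passed within the shared array set (adjusted p = 0.228, 0.265 and 0.257).

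Genes of fatty acid oxidation were higher in the Myogenin-Cre than in the aP2-Cre tumors, 16 of 18 with 0 lower, but 0 within the shared array set (median 1.05), 12 with the array set in the fit, 12 without tumor 41 and 11 without tumor 43. Of 41 respiratory chain and 19 tricarboxylic acid cycle genes 22 and 8 were higher and 0 lower, but none of either within the shared set, with the array set in the fit, median centering or the authors' normalized values, 2 and 1 without tumor 41, and 2 and 0 without tumor 43. Of 18 white adipocyte genes 7 were higher (1 within the shared set, 2 with the array set and 3 without tumor 43). Pparg was 1.23 higher on the log2 scale (adjusted p = 0.00121, and 0.0937 in the shared set), the muscle gluconeogenic enzyme Fbp2 3.49 (adjusted p = 0.000909) and the thioesterase Acot1 3.26 (adjusted p = 0.00019). Among immune genes 12 of 18 macrophage genes were lower and 1, Cd163, higher (1.71, adjusted p = 0.0208), and 6 of 10 MHC class II and lymphocyte genes were lower and 0 higher. The lower counts were 9 and 5 with the array set and 1 of each within the shared set. Of 12 Notch, 11 acetylcholine receptor, 19 TGF-beta and 24 matrix genes, 6, 6, 8 and 10 were lower and 0, 0, 0 and 1 higher, but the lower counts were 0, 0, 0 and 0 within the shared set, 2, 0, 3 and 5 with the array set, 3, 0, 3 and 3 without tumor 41, and 2, 0, 4 and 1 without tumor 43. The invariant chain Cd74, which guides MHC class II molecules, had levels of 10.47, 10.38 and 9.87 in muscle and 9.36, 9.72 and 7.84 in tumors 41, 42 and 43, against a lowest, median and highest of 11.25, 12.90 and 14.40 in the aP2-Cre tumors, a difference of -3.99 (adjusted p = 1.3e-05, and 0.0521 in the shared set). Each difference from muscle above and each difference from the aP2-Cre tumors use the same Myogenin-Cre arrays, so they are not independent.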

How the data were processed

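Illumina bead arrays measured biotin-labelled cRNA of total RNA from 21 mouse samples, of which 6 are compared here. The authors deposited non-normalized probe intensity values with detection p-values; the submitters' processing notes name BeadStudio, with no version, and earlier steps are not given there. The authors' normalized intensity values, which share 1 distribution within each of 5 array sets, served as an alternative. Intensities of all arrays were background-corrected with normexp on negative control statistics inferred from the detection p-values, offset 16, quantile-normalized and taken to log2 (neqc, limma 3.58.1, R 4.3.3). Of 45281 probes, 19655 with a detection p under 0.01 on at least 3 arrays were kept, and the brightest probe stood for a gene, giving 11034 genes. Probe symbols came from the platform annotation: 34885 probes had 1 symbol, 18 several and 10378 none.

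Groups were compared with limma (lmFit and eBayes with a mean-variance trend) over all 21 arrays, with Benjamini-Hochberg adjustment over all genes. Nothing says that the muscle samples came from separate animals, so the p-values measure a spread between samples. That spread was pooled within groups over all 21 arrays, of which 15 were aP2-Cre tumors, rather than taken from the compared samples alone. Where no array of 1 group detected a gene, only a limit is given: the other group's mean is set against the higher of the array's lowest detected signal and the gene's own level, as "at least N-fold". Where only some arrays of the dimmer group detected a gene, their number is stated. Genes among the 20 brightest of a group have no fold. The number of arrays limits the precision. The code was tested on simulated data.

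Genes are named by a rule: 13 chosen genes, the 10 largest rises and falls without overlap, up to 4 called members per list and direction, the 5 genes most variable among the tumors, and the 5 largest differences each way from the aP2-Cre tumors. Isoform partners and a few other members were named after their values were seen. Members and lists were chosen with earlier results of these data known. Alternatives changed the normalization, probe filter, probe summary, arrays fitted and covariates, or left out each array. Promoter windows are RefSeq's on GRCm38.p6.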

Additional observations from a re-analysis of the deposited data

Results flagged for a closer look

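The genes below differed between the Myogenin-Cre and the aP2-Cre tumors by the test of the difference itself (limma over all arrays, values as Myogenin-Cre minus aP2-Cre on the log2 scale). None of them passed within the shared array set of 3 against 3, and no explanation was tested. Among the genes chosen for the comparison with muscle, Gli2 (0.67) and Pparg (1.23) were higher and Myog (-0.91) and Myod1 (-1.0) lower. Among the genes with the largest fitted differences, those above the aP2-Cre tumors were the stefin gene Stfa1 (3.24), of a protease inhibitor family, Fbp2 (3.49), the red cell anion exchanger Slc4a1 (3.31) and Acot1 (3.26), of which Stfa1 was detected on 3, Slc4a1 on 9 and Fbp2 on 13 of 15 aP2-Cre arrays. The stefin gene Stfa2 was undetected on all 15 and lay at least 2.91 higher. Tumor 41 was the highest of the 3 for Stfa2, Stfa1, Fbp2 and Slc4a1. Those below were the MHC genes H2-Aa (-3.90) and H2-Eb1 (-4.05), Cd74 (-3.99) and the protease gene Mmp10 (-4.47), with H2-Aa and Mmp10 detected on 2 of 3 Myogenin-Cre arrays. H2-M2 was undetected on all 3, and the limit of its difference was -3.08, with the fitted value further below 0.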

How the results depend on the processing

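No setting tried reversed a called gene named in the text. With median centering, in which the median difference of all genes moved to 0.253 from 0.0561, 2942 genes rose and 1398 fell, so that 67.8% of the calls were higher against 2778 and 2635 genes without it; the cause was not tested. Leaving out 1 array gave 2353 to 2623 genes higher and 2265 to 2433 lower, and without tumor 41 and muscle 2, chosen after the data were seen, 2310 and 2123. For the Myogenin-Cre against the aP2-Cre tumors, 847 higher and 891 lower became 208 and 201 with the array set as a covariate, 12 and 33 within the shared array set (3 against 3, so fewer samples), 322 and 207 with the authors' normalized values, 1431 and 1661 with array weights, and 226 higher with median centering. Leaving out 1 Myogenin-Cre tumor gave 170 to 1005 higher and 196 to 1188 lower, the extremes being without tumor 43 and without tumor 42, and 304 and 311 without tumor 41. Acta1, not called, changed sign to -0.49 with median centering and -0.71 with cyclic loess, and Xist to 1.44 with Y-linked detection as a covariate. Of 230 named genes, 208 were called, and 165 kept their direction and side of the threshold in all 18 settings; the array set ended 34 calls. No paired analysis was possible because the tumors are numbered 41 to 43 and the muscle samples 1 to 3. Genes near the top of the intensity scale, or undetected in a group, have no measured fold.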
